A study of Mus musculus with 6 samples.

Results

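The ligands of the tumour necrosis factor (TNF) superfamily that helper T cells can make were followed in Th9 cells with and without IRF1. The 10 ligand genes Tnf, Lta, Ltb, Fasl, Cd40lg, Tnfsf4, Tnfsf8, Tnfsf10, Tnfsf11 and Tnfsf14 were taken by name from the 41388 genes of the expression table, as a list chosen with earlier results of these data known. All 10 were found in the table and all 10 passed the minimum level for testing. Both groups were grown from naive CD4+ T cells of C57BL/6 mice aged 8 to 12 weeks, isolated from spleen and lymph nodes. The cells were primed with antibodies to CD3 and CD28 and cultured for 2 days with IL-2, IL-4 and TGF-β, conditions that drive Th9 differentiation. Every culture of both genotypes also received IFN-γ (rat protein at 5 ng/ml by the methods of the study, beside an antibody against the mouse cytokine), and cultures without it were not part of this comparison. The first group was wild type (WT, n = 3) and the second was Irf1-/- (n = 3). The study describes its RNA-Seq samples as independent biological ones, and the labels do not say whether the 3 of a genotype came from separate mice, so that the p-values measure the spread between these samples.

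TNF superfamily ligands are mostly membrane proteins that assemble as trimers and engage matching receptors on neighbouring cells. Receptors with a death domain can recruit FADD and caspase 8, whereas the others bind TRAF adaptors and activate NF-κB. In T cells the family covers inflammatory cytokines (TNF, lymphotoxins), costimulatory ligands (OX40L, CD40L, CD30L, LIGHT), death ligands (FasL, TRAIL) and RANKL, the osteoclast differentiation factor.

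The test separated 5 of the ligand genes between the genotypes and left 5 uncalled. Tnfsf4, Tnfsf11 and Tnfsf8 were lower in Irf1-/- Th9 cells, Lta was higher, and Tnfsf14 was higher by a smaller margin, close to the threshold of the test. The values are normalized counts, that is, a gene's reads scaled by the size factor computed for each library. Differences are log2 fold changes of Irf1-/- against WT on the scale of the log2 of the normalized count plus 1, with adjusted p from limma after Benjamini-Hochberg adjustment over 11379 genes and a call at an adjusted p below 0.05. By that rule 3 of 10 ligand genes were lower, where 12.4% of all genes tested were lower, and 2 of 10 were higher, where 11.4% of all genes were. Together 5 of 10 were called, against 23.7% of all genes in either direction. The same 5 of 10 had WT and Irf1-/- values without overlap, as did 40.5% of all genes tested. The median log2 fold change was -0.07 over the 10 ligand genes and -0.0037 over all genes, with 7 of 10 ligand genes below 0 and 5755 of 11379 genes below 0. With 3 samples against 3, the exact two-sided permutation test cannot give a p below 0.1, and it gave 0.1 for each of the 5 called ligand genes.

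The libraries held between 6381576 and 13348230 reads on genes in WT and between 5639788 and 12423511 in Irf1-/- samples, and replicate 3 was the largest of each genotype. A count of 3 reads, taken as the floor, equalled a normalized count of 1.84 to 4.16. Reads on the targeted gene Irf1 were not lost: normalized counts were 2968, 2907 and 2660 in WT and 1780, 1729 and 1476 in Irf1-/- libraries, or 58.4% of the WT mean, and gene totals do not show which exons the reads lay on. Replicates 1 and 2 differed little beyond sampling noise (chi-square per gene 1.28 in WT and 1.80 in Irf1-/- libraries), whereas either of them differed from replicate 3 by 5.99 to 7.34 per gene. Y-linked transcripts, with summed normalized counts of up to 2306, were present in WT replicates 1 and 2 and at most 11.1 in the other 4 libraries. The libraries thus differed in the sex of the mice, although the methods of the study describe sex-matched mice, and since no Irf1-/- library was of the Y-carrying kind, sex and genotype were partly confounded. The sum of 6 T cell markers ranged from 13020 to 13260 in WT and from 12540 to 12980 in Irf1-/- libraries, without overlap. The labelled cell type was thus well represented, although Cd3e alone of the 6 was called, at 81.1% of WT (adjusted p = 0.00535 in limma). Among markers of other cells, 4 of 5 B cell genes had at least 1 read, with summed counts of at most 37.4 (Pax5 was at 0), and 2 of 2 CD8 genes did, with at most 41.2. Each of the 4 dendritic cell genes had at most 3 reads in any library, no more than the floor. All 7 myeloid genes had at least 1 read (Fcgr1 at most 2) and summed to between 51.2 and 177.9 in WT and between 41.5 and 1029 in Irf1-/- libraries, the highest being Irf1-/- replicate 2, and their part in the ligand values was not tested. Of the 4 NK cell genes, Ncr1 and Klrb1c were at 0, Klre1 had at most 2 reads, and only Eomes, which T cells can also express, differed, with 33.7 to 51.0 in WT and 5.55 to 20.5 in Irf1-/- libraries, and its part in the ligand values was not tested either. In bulk RNA, fewer cells that make a transcript and less transcript per cell cannot be told apart.

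**Figure D1:**
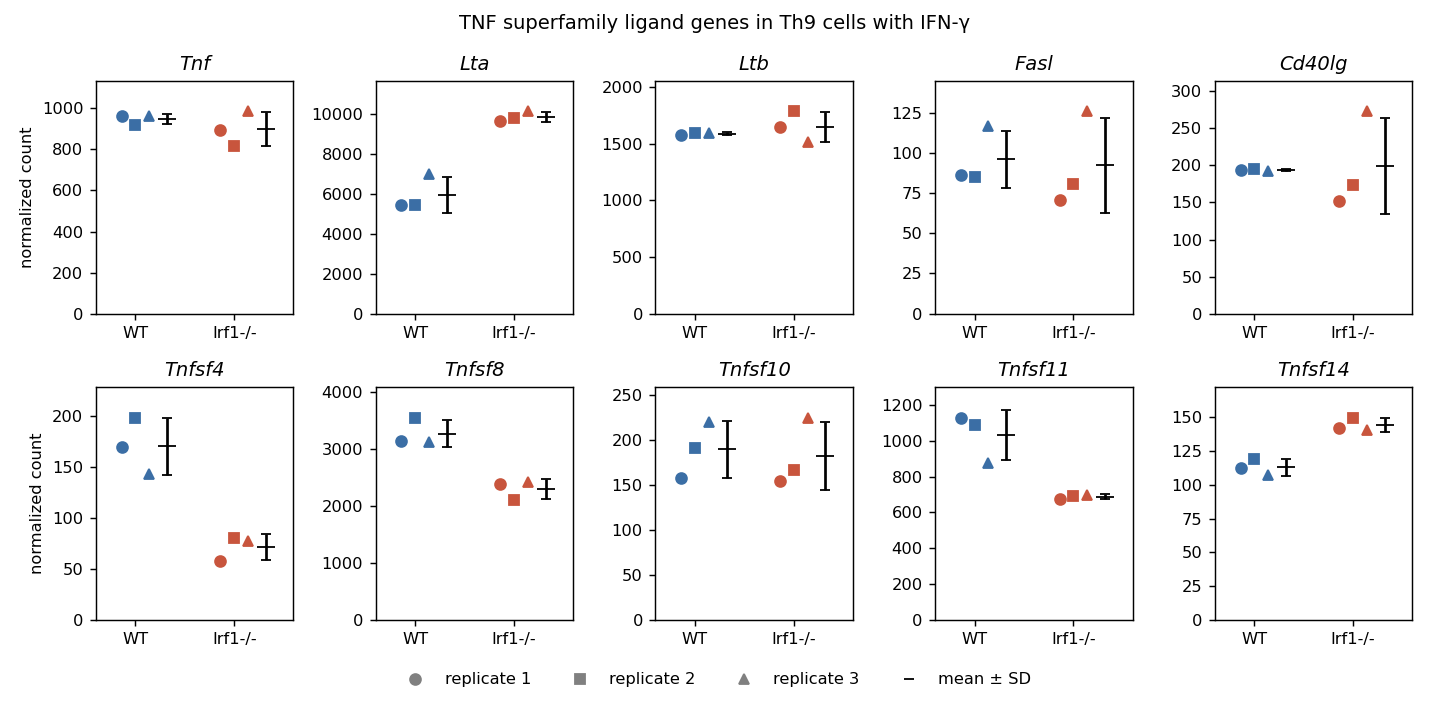
Normalized counts of the 10 ligand genes, a panel each with its own linear axis from 0, in 3 WT and 3 Irf1-/- libraries; marker shapes give replicates 1 to 3, and bars the mean ± SD. The 2 genotypes are separated for Lta, Tnfsf4, Tnfsf8, Tnfsf11 and Tnfsf14 and overlap for Tnf, Ltb, Fasl, Cd40lg and Tnfsf10.

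Lta encodes lymphotoxin-α, which is secreted as a homotrimer that binds the TNF receptors and which also joins lymphotoxin-β in a membrane-bound trimer. The gene (ENSMUSG00000024402) is encoded by the - strand of chromosome 17 between positions 35203165 and 35205351 (all positions are of GRCm38). Its normalized counts were 5427, 5438 and 6969 in WT and 9652, 9774 and 10119 in Irf1-/- libraries. Every Irf1-/- library lay above every WT library, and WT replicate 3 was the WT library nearest to the Irf1-/- values. The mean rose from 5945 ± 887 to 9848 ± 242 (SD, n = 3), or to 166% of WT, a log2 fold change of 0.74 (standard error 0.0867, 95% interval 0.55 to 0.93, adjusted p = 0.000256 in limma). The rise was smaller between the larger libraries, at 0.54 for replicate 3 against replicate 3, than in the 4 smaller ones, at 0.84. After adjustment for Y-linked transcripts it was 0.53. Those transcripts were high only in WT replicates 1 and 2, so that this value rests mainly on WT replicate 3 against the Irf1-/- libraries. The rise in Lta was called under each of 19 alternative settings, with log2 fold changes from 0.53 to 0.86.

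Tnf, the gene of the inflammatory cytokine TNF (ENSMUSG00000024401), lies next to Lta on the same strand, from 35199381 to 35202007 on chromosome 17, with 1157 bases between the genes. Its normalized counts were 962.2, 919.7 and 962.6 in WT and 894.3, 818.2 and 985.4 in Irf1-/- libraries. Irf1-/- replicate 3 was the highest of all 6 libraries and Irf1-/- replicate 2 the lowest, so that the WT values lay within the range of the Irf1-/- values. The log2 fold change of -0.08 (95% interval -0.24 to 0.08, adjusted p = 0.466 in limma) bounded any difference in Tnf at under the size seen for Lta. Ltb (ENSMUSG00000024399), whose product anchors lymphotoxin-α at the membrane, lies on the other side of Tnf on the + strand, from 35194439 to 35196320 on chromosome 17 and 3060 bases from Tnf. WT libraries had 1576, 1598 and 1596 normalized counts of Ltb and Irf1-/- libraries 1645, 1786 and 1514. The Irf1-/- values spread to both sides of the close WT values, with a log2 fold change of 0.05 (95% interval -0.09 to 0.19, adjusted p = 0.627 in limma). No exon of the 3 genes overlapped an exon of another annotated gene.

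Ltb, Tnf and Lta follow each other in this order, with 6844 bases between Ltb and Lta, and the level of Lta relative to the other two differed between the genotypes. Per kb of exon, Lta transcripts exceeded Tnf transcripts 6.68, 7.01 and 8.58 times in WT and 12.8, 14.2 and 12.2 times in Irf1-/- libraries. Against Ltb the same ratio was 3.77, 3.73 and 4.79 in WT and 6.43, 6.00 and 7.33 in Irf1-/- libraries. Neither ratio overlapped between the genotypes, whereas Ltb over Tnf ranged from 1.77 to 1.88 in WT and from 1.66 to 2.36 in Irf1-/- libraries. The exact two-sided permutation p was 0.1 for either ratio of Lta, the smallest this design can give, and 0.5 for Ltb over Tnf. These ratios compare genes within a library and do not depend on the size factors.

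**Figure D2:**
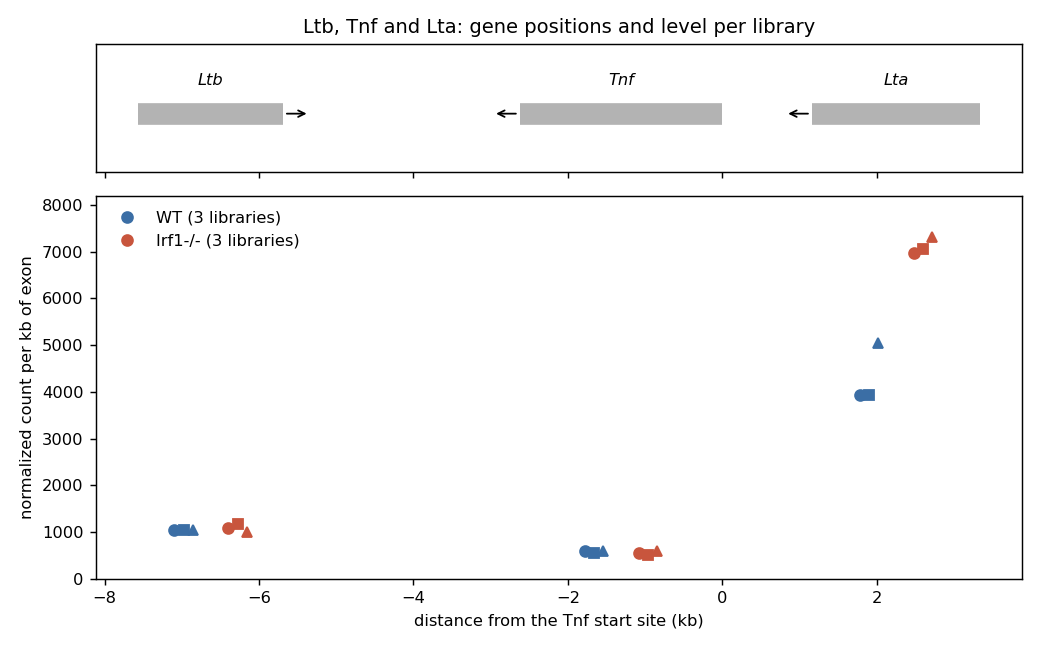
The upper drawing shows the order and direction of Ltb, Tnf and Lta by distance in kb, and the lower plot shows the level of each gene in normalized counts per kb of exon in 3 WT and 3 Irf1-/- libraries, with a marker shape for each replicate. The 2 genotypes are separated at Lta, where the mean was 7121 per kb in Irf1-/- against 4298 in WT, and overlap at Tnf and Ltb.

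To show the sequence beside which these transcripts start, the 250 bases before the RefSeq start site of Lta (GRCm38.p6, chr17:35205352-35205601, - strand) and of Tnf (GRCm38.p6, chr17:35202008-35202257, - strand) are printed 5′ to 3′. Tnf was added as the neighbour of Lta after its values were seen. Capitals mark matches on either strand to 4 motifs: the interferon-stimulated response element core AANNGAAA (ISRE), the STAT site TTCNNNGAA (GAS), the AP-1 site TGANTCA and the κB site of NF-κB. Among 32851 RefSeq windows of this length, an ISRE core was present in 21.3%, a GAS in 7.02%, an AP-1 site in 6.75% and a κB site in 7.25%.
Lta: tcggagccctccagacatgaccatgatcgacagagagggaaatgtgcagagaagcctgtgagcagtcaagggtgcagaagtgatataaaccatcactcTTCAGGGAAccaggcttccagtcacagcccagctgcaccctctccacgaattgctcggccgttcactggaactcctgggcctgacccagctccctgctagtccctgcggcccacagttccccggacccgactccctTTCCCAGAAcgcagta
Tnf: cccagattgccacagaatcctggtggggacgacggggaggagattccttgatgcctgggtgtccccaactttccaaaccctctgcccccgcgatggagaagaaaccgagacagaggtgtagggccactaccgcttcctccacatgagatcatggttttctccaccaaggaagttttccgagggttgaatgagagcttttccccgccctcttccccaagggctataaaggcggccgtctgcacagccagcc
The Lta window held a GAS match at 152 to 144 and another at 16 to 8 bases before the start site, whereas the Tnf window held no match to any of the 4 motifs. The Ltb window, not printed, held a GAS match at 172 to 164 and a κB match at 87 to 78 bases before its start site. A match describes the letters only, and binding was not measured here.

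Tnfsf4 encodes OX40L, which costimulates T cells through OX40 and is made mainly by antigen-presenting cells but also by activated T cells. The gene (ENSMUSG00000026700) is on chromosome 1 from 161395409 to 161418410 on the + strand. Normalized counts were 169.7, 198.4 and 142.6 in WT and 57.3, 80.4 and 77.3 in Irf1-/- libraries. The highest Irf1-/- library remained well under the lowest WT library, which was replicate 3. Tnfsf4 showed the largest difference among the 10 ligand genes and fell to 42.1% of WT, from 170.2 ± 27.9 to 71.7 ± 12.6 (SD, n = 3), with a log2 fold change of -1.24 (standard error 0.167, 95% interval -1.61 to -0.87, adjusted p = 0.000588 in limma). The fall was called under each of 19 alternative settings and ranged from -1.42 in replicates 1 and 2 alone to -1.01 after adjustment for Y-linked transcripts. Between the larger libraries of replicate 3 it was -0.87. Antigen-presenting cells, which the isolation of CD4+ T cells is meant to remove, can also carry OX40L. The myeloid and B cell sums given above overlapped between the genotypes. The dendritic markers, each at or under the floor of 3 reads, summed to between 1.23 and 2.50 in WT and between 5.11 and 8.36 in Irf1-/- libraries, without overlap. The part of these cells in the Tnfsf4 values was not tested. Tnfsf4 had no entry in the promoter table.

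Tnfsf8 encodes CD30L, a costimulatory ligand of CD30. The gene (ENSMUSG00000028362) is on chromosome 4 from 63831308 to 63861347 on the - strand. WT libraries had 3149, 3556 and 3120 and Irf1-/- libraries 2386, 2107 and 2431 normalized counts. All WT values were higher than all Irf1-/- values, and replicate 3 of either genotype lay within or next to the range of replicates 1 and 2. Tnfsf8 fell to 70.5% of WT, a log2 fold change of -0.51 (standard error 0.0712, 95% interval -0.66 to -0.35, adjusted p = 0.000782 in limma), and was called under each of 19 alternative settings, from -0.58 in replicates 1 and 2 alone to -0.44. Between the larger libraries of replicate 3 it was -0.36.

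Tnfsf14 encodes LIGHT, which binds HVEM and the lymphotoxin-β receptor. The gene (ENSMUSG00000005824) is on chromosome 17 from 57189492 to 57194177 on the - strand, far from the Lta locus. Normalized counts of 112.3, 119.0 and 107.0 in WT stood against 142.1, 149.8 and 140.6 in Irf1-/- libraries. The genotypes were separated, and within each the 3 values were close. Tnfsf14 rose to 128% of WT, a log2 fold change of 0.35 (standard error 0.108, 95% interval 0.11 to 0.59, adjusted p = 0.0378 in limma). The log2 fold change stayed between 0.29 and 0.42 in 19 of 19 alternative settings, but the adjusted p crossed the threshold in 12 of them, which included the loss of any 1 library (highest adjusted p 0.183, in DESeq2).

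Cd40lg encodes CD40L, by which helper T cells activate B cells and dendritic cells. It lies on the X chromosome (ENSMUSG00000031132, X from 57212143 to 57224042 on the + strand). Normalized counts were 193.4, 194.8 and 191.8 in WT and 151.6, 173.4 and 272.9 in Irf1-/- libraries. Irf1-/- replicates 1 and 2 were below all WT libraries and Irf1-/- replicate 3 was above them. The log2 fold change over all libraries was 0.00 (95% interval -0.40 to 0.39, adjusted p = 0.993 in limma). It was -0.26 in replicates 1 and 2 and 0.51 between the libraries of replicate 3, so that the sign differed between these subsets.

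Tnfsf11 encodes RANKL, which drives osteoclast formation and acts on dendritic cells through RANK. The gene (ENSMUSG00000022015) is on chromosome 14 from 78277445 to 78308043 on the - strand. WT libraries had 1129, 1090.4 and 874.7 and Irf1-/- libraries 673.4, 692.0 and 698.5 normalized counts. The 3 Irf1-/- values were almost equal, and WT replicate 3 lay between them and the other WT libraries. Tnfsf11 fell to 66.7% of WT, a log2 fold change of -0.57 (standard error 0.0897, 95% interval -0.77 to -0.38, adjusted p = 0.0014 in limma). The fall was -0.70 in replicates 1 and 2 alone and -0.32 between the libraries of replicate 3. After adjustment for Y-linked transcripts, which rests mainly on WT replicate 3, it was -0.38. When replicates 1 and 2 of each genotype were averaged as 1 sample, the log2 fold change was -0.51 and the adjusted p in limma 0.0523, the only setting of 19 in which the call was lost.

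The 250 bases before the start site of Tnfsf11 (GRCm38.p6, chr14:78308044-78308293, - strand) and the 187 bases of the same window of Tnfsf8 that lie outside its annotated exons (GRCm38.p6, chr4:63861348-63861534, - strand) are shown as the windows of the remaining genes that fell, with capitals as above.
Tnfsf11: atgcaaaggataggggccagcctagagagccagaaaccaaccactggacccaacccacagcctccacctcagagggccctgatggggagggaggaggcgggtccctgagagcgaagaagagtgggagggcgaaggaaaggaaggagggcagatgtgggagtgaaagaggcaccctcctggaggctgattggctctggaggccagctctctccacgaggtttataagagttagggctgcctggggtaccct
Tnfsf8: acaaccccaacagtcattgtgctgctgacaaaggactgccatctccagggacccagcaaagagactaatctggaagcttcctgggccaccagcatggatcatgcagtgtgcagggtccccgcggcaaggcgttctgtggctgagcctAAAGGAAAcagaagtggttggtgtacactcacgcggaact
An ISRE core stood at 103 to 96 bases before the Tnfsf8 start site, a match shared by 21.3% of all windows, and the Tnfsf11 window held no match to the 4 motifs. Of the other windows, that of Tnfsf10 held ISRE cores at 53 to 46 and at 30 to 23 bases before the RefSeq start, which lies downstream of the GENCODE gene start, so that the nearer match is within the annotated gene and the farther one spans its start, that of Tnfsf14 an AP-1 match at 160 to 154 bases and that of Fasl no match. RefSeq windows were found for 8 of the 10 ligand genes, Cd40lg and Tnfsf4 being the exceptions.

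The death ligands were not called. Fasl encodes Fas ligand, by which T cells trigger apoptosis in cells that carry Fas, and lies on chromosome 1 (ENSMUSG00000000817, from 161780689 to 161788495 on the - strand), 362.3 kb from Tnfsf4. Normalized counts of Fasl were 86.1, 85.4 and 116.8 in WT and 70.4, 80.4 and 125.9 in Irf1-/- libraries. Replicate 3 was the highest library of either genotype, and the ranges overlapped. The log2 fold change was -0.09 (95% interval -0.56 to 0.39, adjusted p = 0.805 in limma), a wide interval that leaves room for a change of the size seen for Tnfsf8. Tnfsf10, the gene of TRAIL on chromosome 3 (ENSMUSG00000039304, from 27317028 to 27342427 on the + strand), had 157.2, 191.1 and 220.1 normalized counts in WT and 154.0, 166.4 and 225.0 in Irf1-/- libraries. Again replicate 3 was the highest of each genotype and the ranges overlapped almost fully, with a log2 fold change of -0.07 (95% interval -0.42 to 0.29, adjusted p = 0.804 in limma). None of the 10 ligand genes lies on chromosome 11, which carries Irf1.

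**Figure D3:**
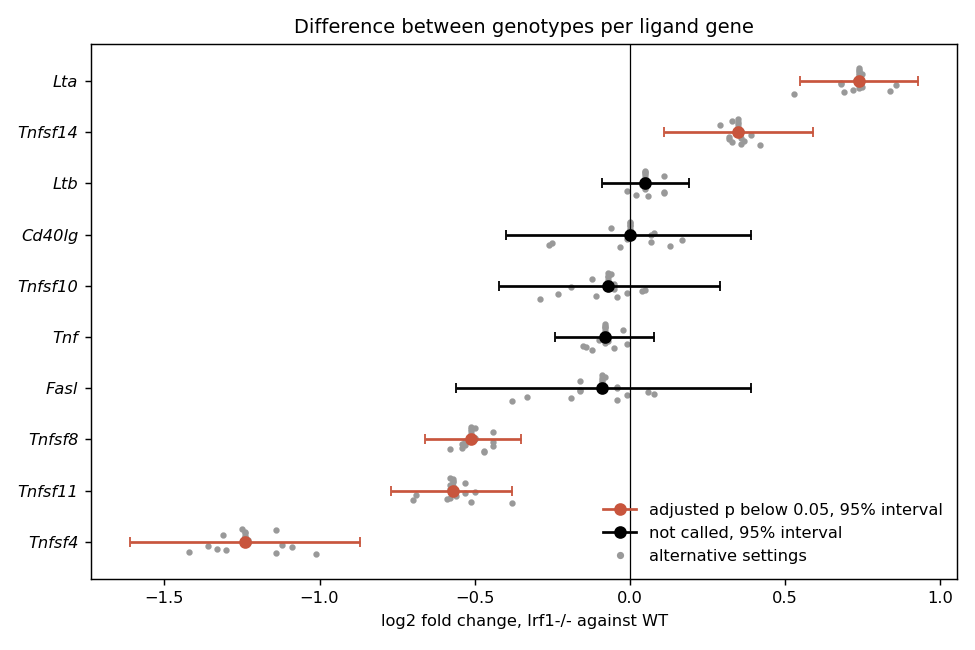
Log2 fold change of each ligand gene in Irf1-/- against WT Th9 cells with its 95% interval; grey dots are the values under alternative settings. Lta and Tnfsf14 lie to the right of 0, Tnfsf4, Tnfsf11 and Tnfsf8 to the left, and the intervals of the other 5 genes include 0.

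Levels of the ligand genes spanned a wide range when divided by exon length. In WT cells Lta was the most abundant at 4298 ± 641 normalized counts per kb of exon (SD, n = 3), followed by Ltb at 1049 ± 7.85, Tnfsf8 at 860.2 ± 64.1, Tnf at 578.5 ± 15.05, Tnfsf11 at 461.3 ± 61.4 and Cd40lg at 154.7 ± 1.19. Below these came Tnfsf4 at 92.4 ± 15.1, Tnfsf14 at 61.1 ± 3.27, Fasl at 49.6 ± 9.26 and Tnfsf10 at 36.0 ± 5.97 per kb. Tnfsf14 and Fasl were the only neighbours in this order whose WT libraries overlapped. In Irf1-/- cells the upper order was the same, with Lta at 7121 ± 175, Ltb at 1087 ± 89.8 and Tnfsf8 at 606.2 ± 46.1 per kb, but Tnfsf8 now overlapped Tnf at 548.7 ± 51.1. Tnfsf11 followed at 307.7 ± 5.83 and Cd40lg at 159.4 ± 51.7 per kb. Tnfsf4 moved from place 7 to place 9, at 38.9 ± 6.81 per kb, where it overlapped Fasl above it and Tnfsf10 below it.

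Lta dominated the summed transcript level of the family. It made up 54.0%, 53.3% and 60.9% of the summed level per kb of the 10 genes in WT and 71.0%, 71.1% and 71.0% in Irf1-/- libraries. The 3 Irf1-/- libraries were nearly equal and all above the WT libraries. The sum itself was 7265, 7377 and 8280.4 per kb in WT and 9833, 9944 and 10312 in Irf1-/- libraries. Without Lta it was 3341, 3445 and 3242 in WT and 2854, 2877 and 2995 in Irf1-/- libraries, so that the other 9 genes together were lower in each Irf1-/- library than in each WT library.

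**Figure D4:**
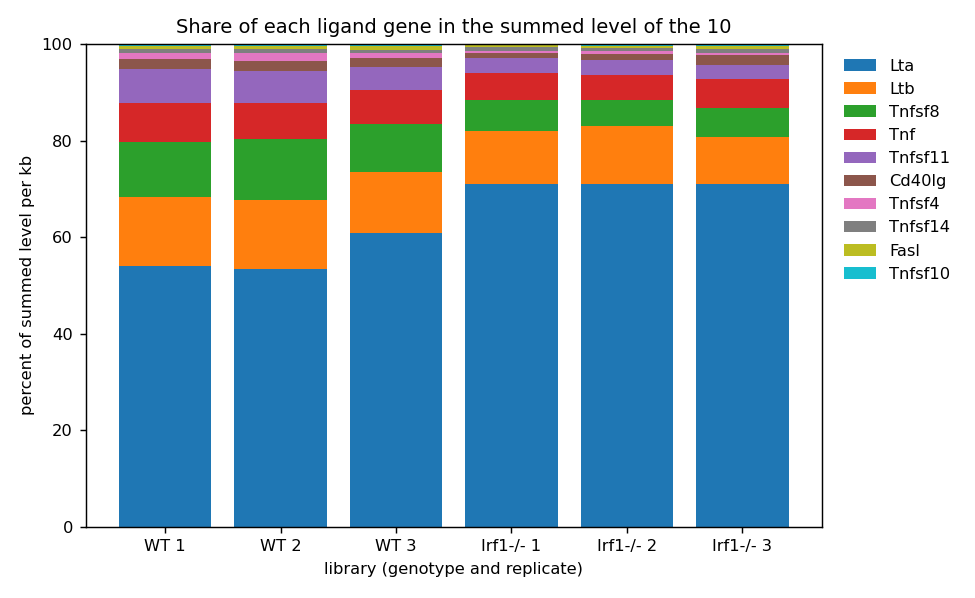
Share (%) of each ligand gene in the summed level per kb of exon of the 10 genes, a stacked bar from 0 to 100% for each of the 6 libraries. Lta takes 53.3% to 60.9% of the bar in WT and 71.0% to 71.1% in Irf1-/- libraries.

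The receptors of these ligands showed changes of their own, and the largest were in receptors whose ligand genes were not called or moved the other way. Of 20 receptor genes listed, 16 were tested, of which 4 were lower, 1 was higher and 11 were not called, with a median log2 fold change of 0.04. Among all genes tested 12.4% were lower and 11.4% higher. Fas, the receptor of Fas ligand, had 273.3, 262.1 and 268.0 normalized counts in WT and 86.0, 97.1 and 113.8 in Irf1-/- libraries. The genotypes were far apart, with Fas at 36.9% of WT (log2 fold change -1.44, adjusted p = 2.7e-05 in limma), beside Fasl without a call. Tnfrsf14, which encodes the LIGHT receptor HVEM, had 182.2, 198.4 and 161.0 in WT and 74.0, 58.2 and 67.1 in Irf1-/- libraries. It fell to 36.8% of WT (log2 fold change -1.43, adjusted p = 6.4e-05 in limma), while the gene of its ligand, Tnfsf14, was higher. The ratio of Tnfsf14 to Tnfrsf14 per kb was 0.480, 0.467 and 0.517 in WT and 1.49, 2.00 and 1.63 in Irf1-/- libraries, without overlap. For Fasl over Fas the ratio was 0.335, 0.347 and 0.464 in WT and 0.872, 0.882 and 1.18 in Irf1-/- libraries, again without overlap.

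For OX40L and its receptor the order was the reverse. Tnfrsf4, the gene of OX40, had 3044, 3264 and 3108 normalized counts in WT and 3162, 3344 and 3401 in Irf1-/- libraries, which overlapped (log2 fold change 0.07, 95% interval -0.04 to 0.19, adjusted p = 0.35 in limma). Tnfsf4 was therefore lower beside a receptor gene that was abundant in both genotypes, and its ratio to Tnfrsf4 per kb was 0.0413, 0.0450 and 0.0340 in WT and 0.0134, 0.0178 and 0.0168 in Irf1-/- libraries. Tnfrsf10b, the receptor of TRAIL, fell to 71.4% of WT (log2 fold change -0.48, adjusted p = 0.012 in limma), a call lost in 4 of 19 alternative settings, over which the log2 fold change stayed between -0.57 and -0.36. Tnfrsf1a and Tnfrsf1b, which bind TNF and soluble lymphotoxin-α, were not called (log2 fold changes 0.26 and 0.00, adjusted p = 0.202 and 0.971 in limma). Cd40, the receptor of CD40L, varied within the genotypes, with 190.9, 144.3 and 89.1 normalized counts in WT and 93.1, 88.8 and 28.8 in Irf1-/- libraries (log2 fold change -1.11, adjusted p = 0.0711 in limma). Replicate 3 had the lowest Cd40 of each genotype. Over the 19 alternative settings the log2 fold change ranged from -1.40 to -0.50 and the adjusted p in limma, edgeR or DESeq2 from 7.06e-06 to 0.471. Without WT replicate 3 the values were -1.40 and 0.0188, and without Irf1-/- replicate 3 they were -0.56 and 0.126. After adjustment for Y-linked transcripts, which rests mainly on WT replicate 3, the log2 fold change was -0.50. Cd40 was called with a replicate block (-1.11, adjusted p = 1.44e-05 in limma).

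Other receptors of the ligands had low counts. Tnfrsf8, the gene of CD30, had 8.74, 7.21 and 16.0 normalized counts in WT and 10.7, 13.9 and 55.6 in Irf1-/- libraries (log2 fold change 0.95, adjusted p = 0.238 in limma), low levels beside its abundant ligand gene Tnfsf8. Irf1-/- replicate 3 carried most of this value, which was 0.26 without that library and ranged from 0.26 to 1.39 over 18 alternative settings, of which the replicate block gave a call (0.95, adjusted p = 0.042 in limma). Ltbr, the lymphotoxin-β receptor, which is characteristic of stromal and myeloid cells, had at most 7 reads in any library. Tnfrsf11a, the gene of RANK, had at most 8 reads. Tnfrsf11b, the gene of the soluble RANKL decoy osteoprotegerin, had 0 reads in each WT library and 16, 4 and 22 reads in Irf1-/- libraries, with a mean at least 4.21-fold higher than the WT floor of 3 reads per library. Outside the matched receptors, Cd27, the receptor of CD70, fell to 70.7% of WT (log2 fold change -0.50, adjusted p = 0.00452 in limma). Tnfrsf13b, which encodes TACI, a receptor of BAFF and APRIL best known from B cells, rose to 183% of WT, with 439.3, 479.7 and 560.6 normalized counts in WT and 927.7, 875.1 and 911.3 in Irf1-/- libraries (log2 fold change 0.88, adjusted p = 8e-05 in limma). The B cell markers beside it summed to between 18.7 and 26.4 in WT and between 21.7 and 37.4 in Irf1-/- libraries.

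**Figure D5:**
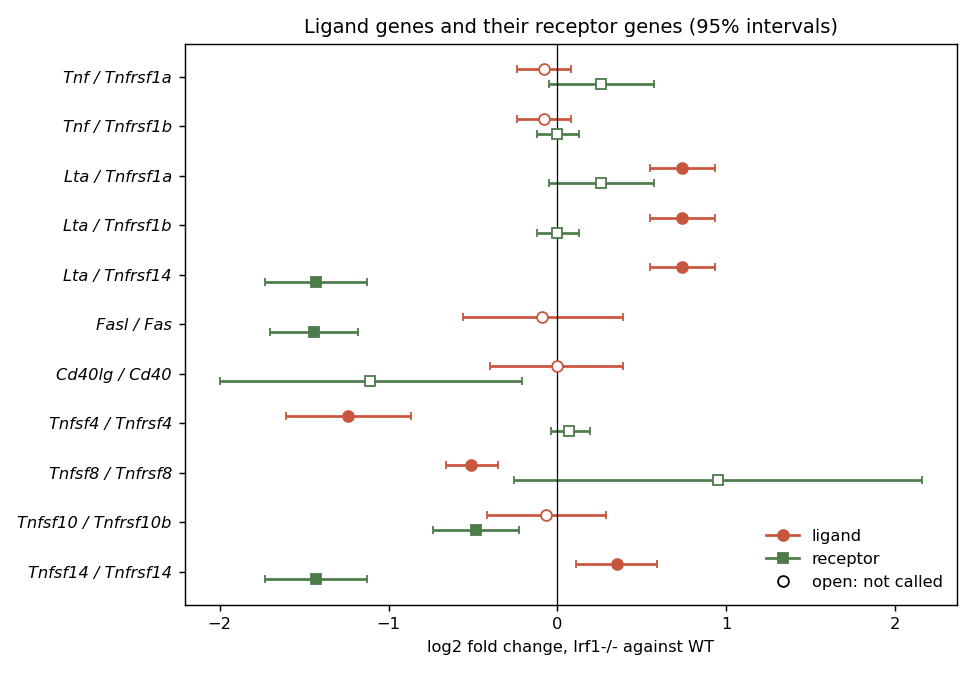
Log2 fold changes in Irf1-/- against WT Th9 cells of ligand genes (circles) and their tested receptor genes (squares), a pair per row, with open symbols where not called. Ltb and Tnfsf11 are left out, since no matched receptor gene of either was tested. Fas (-1.44) and Tnfrsf14 (-1.43) lie far to the left of Fasl (-0.09) and Tnfsf14 (0.35), and Tnfsf4 (-1.24) lies to the left of Tnfrsf4 (0.07).

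Signalling and shedding genes of the pathway were mostly not called. All 20 genes listed were tested, and 4 were lower, 0 were higher and 16 were not called in limma, with a median log2 fold change of -0.09, where 12.4% of all genes were lower and 11.4% higher. Cflar, which encodes the caspase 8 inhibitor c-FLIP, fell to 70.9% of WT (log2 fold change -0.50, adjusted p = 0.00118 in limma). Adam10, a protease that sheds Fas ligand and other membrane ligands, fell to 77.4% of WT (log2 fold change -0.37, adjusted p = 0.00279 in limma), a call lost in 1 of 19 alternative settings, with averaged replicates (-0.34, adjusted p = 0.0691). Traf5, an adaptor of OX40, CD27 and CD30, and Birc3, a ubiquitin ligase of the TRAF complex, had log2 fold changes of -0.35 and -0.22 (adjusted p = 0.0413 and 0.0179 in limma). Their log2 fold changes stayed between -0.42 and -0.32 and between -0.25 and -0.17 over 19 alternative settings, in 11 and 9 of which the adjusted p was above the threshold.

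Of the 8 further ligand genes of the family, 1 was tested. Tnfsf9, the gene of 4-1BBL, had 41.2, 38.5 and 30.1 normalized counts in WT and 21.5, 23.6 and 37.7 in Irf1-/- libraries, which overlapped (log2 fold change -0.43, adjusted p = 0.261 in limma). Cd70, 39.7 kb from Tnfsf14, had 9.98, 14.4 and 5.53 normalized counts in WT and 8.36, 2.77 and 2.56 in Irf1-/- libraries and was under the minimum for testing.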

How the data were processed

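RNA was collected from 3 WT and 3 Irf1-/- Th9 cultures and sequenced as poly(A) libraries. Per the submitters' processing notes and the methods of the study, the authors aligned reads to GRCm38 with STAR 2.4.0b, used featureCounts with Ensembl genes and normalized with DESeq2 1.12.3. The deposited signal values are counts divided by a size factor per library. Use of strand in counting is not given in the sources used here. Whole reads were recovered for 100% of the values (tolerance 0.01 of a read). Floors from counts cover counting error only, whereas the intervals given come from limma and reflect the spread between the samples.

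The 11379 genes whose normalized count averaged 10 or more entered limma 3.58.1 in R 4.3.3 (eBayes with trend) on the log2 of the value plus a pseudocount of 1, a scale that understates changes of low genes, with Benjamini-Hochberg adjustment and a threshold of 0.05. The recovered reads were also tested with DESeq2 1.42.0 and edgeR 4.0.16. Further alternatives were a pseudocount of 0.1 or 10, a minimum mean of 50 or none, TMM or quantile scaling, a fit without trend and a replicate block. Others were the mean log2 level of the Y-linked genes as a covariate, each library left out, replicates 1 and 2 alone and, chosen after seeing the data, replicates 1 and 2 averaged. Since Y-linked transcripts were high only in WT replicates 1 and 2, the covariate fit sets mainly WT replicate 3 against the Irf1-/- libraries. Over all genes tested, edgeR called 1417 lower and 1261 higher and DESeq2 1060 lower and 942 higher, against 1406 and 1293 in limma. Scripts were tested on simulated data.

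Named genes are the ligand genes, their matched receptors, any called gene of the receptor, signalling and further ligand lists, and Irf1. Tnfsf9 and Cd70 of the further ligands, cell type markers and the genes most like Tnfsf4 and Lta are also named. Promoters of the called ligand genes with the 4 largest log2 fold changes were printed where RefSeq held them. The ligand genes and lists were chosen with earlier results of these data known. Gene positions and exon lengths came from GENCODE M21 (GRCm38), and promoters from RefSeq (GRCm38.p6). Windows were searched with Python 3.11.15 over 250 bases before the start.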

Additional observations from a re-analysis of the deposited data

How the results depend on the processing

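Lta, Tnfsf4 and Tnfsf8 kept their direction and call under all 19 alternatives, Tnfsf11 under 18 and Tnfsf14 under 7. The number of ligand genes higher in Irf1-/- cells was 2, and 1 in DESeq2, without a filter, with quantile normalization, with the Y-linked covariate, in replicates 1 and 2 alone or averaged, and 1 whichever library was left out. The same-numbered samples did not all deviate together (r = 0.0922, 0.269 and 0.321), although each correlated best with its own number. The replicate block was therefore used only as an alternative. It left the ligand calls at 3 lower and 2 higher. With it, 6 receptor genes were lower (4 without it, Cd40 being added) and 4 higher (1, Tnfrsf8 being added). Signalling genes numbered 8 lower (4) and 2 higher (0), and 2116 of all genes were lower (1406). Receptor genes higher numbered 2 in DESeq2, 2 without a filter, 2 with quantile normalization, 3 in replicates 1 and 2 alone and 1 to 2 with a library left out. Signalling genes lower numbered 2 in DESeq2, 1 with averaged replicates and 2 to 5 with a library left out, and signalling genes higher 2 with quantile normalization, 2 in replicates 1 and 2 alone and 0 to 2 with a library left out. Tnfsf9 was called lower in replicates 1 and 2 alone (1 further ligand gene). Over all genes, 807 were lower without a trend, 394 lower and 413 higher with averaged replicates, and 826 to 1472 lower and 799 to 1372 higher with a library left out. Signs turned only for uncalled genes: with a library left out, Ltb ranged from -0.01 to 0.11, Fasl from -0.33 to 0.08, Cd40lg from -0.25 to 0.17, Tnfsf10 from -0.23 to 0.05 and Tnfrsf1b from -0.02 to 0.03. Individual turned values were 0.06 and 0.08 for Fasl, 0.04 and 0.05 for Tnfsf10, 0.00, 0.07 and 0.17 for Cd40lg, which also gave 0.08 in edgeR, 0.07 in DESeq2 and 0.13 with averaged replicates, and 0.00, -0.01 and -0.02 for Tnfrsf1b, which gave -0.01 in replicates 1 and 2 alone. The cause of these differences was not tested.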

Other observations

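The genes whose log2 values ran most like those of the ligand genes with the largest differences are given as a description. They were taken among 8225 genes with a mean of at least 100, over 6 libraries that also differ in depth and genotype. For Tnfsf4 they were Cd69, an early activation marker (r = 0.9954), Idnk (r = 0.992) and Coil (r = 0.9905), and for Lta they were Krtcap2 (r = 0.9997), Scarb1 (r = 0.9993) and Batf3, a BATF family transcription factor (r = 0.9992).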
